A study of Caenorhabditis elegans with 9 samples.

Results

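The *Caenorhabditis elegans* germline keeps a pool of stem cells at its distal end and sends their daughters into meiosis as they move away. The 8 genes described here form the core of that switch: the Notch receptor *glp-1*, its target genes *lst-1* and *sygl-1*, the RNA-binding repressors *fbf-1* and *fbf-2*, and the meiotic entry genes *gld-1*, *gld-2* and *nos-3*. They were taken by gene name from the deposited table of library-size-scaled counts (CPM), where all 8 were found, out of 20336 genes to which the transcript estimates were summed. RNA was sequenced from whole animals at the fourth larval stage (L4), the stage before adulthood, at which the hermaphrodite germline makes sperm. The 9 libraries formed 3 groups of 3. They were nhr-114(gk849) animals whose mothers received 8 µM vitamin B12, nhr-114(gk849) animals whose mothers received vehicle, and wild-type animals whose mothers received vehicle. *nhr-114* encodes a nuclear hormone receptor of the HNF4 family. The labels name a single mutant allele and do not say which part of the gene it removes, nor whether each replicate was its own culture. The p-values therefore cover the variation among these libraries alone, and part of it may be technical.

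In this network the distal tip cell of the somatic gonad displays Notch ligands, GLP-1 on neighbouring germ cells responds, and the response switches on *lst-1* and *sygl-1*. The LST-1 and SYGL-1 proteins work with the PUF-family proteins FBF-1 and FBF-2, which bind messenger RNAs and hold back those that drive differentiation, *gld-1* among them. Meiotic entry is promoted along a pair of branches: GLD-1, a STAR-family translational repressor, acts with the Nanos-related protein NOS-3, and GLD-2, a cytoplasmic poly(A) polymerase, activates messenger RNAs with its partners. Much of this control acts on translation, which RNA abundance does not measure.

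Libraries held 14461993 to 16659895 estimated counts, and 14747 genes were tested, all 8 regulators among them. *nhr-114* itself had 2 to 4 counts per library in the mutant B12 group and 3 to 4 in the mutant vehicle group, against 6954 to 8027 in wild type, so every library matched its genotype label. Among the regulators the counts ran from 50, for *sygl-1* in B12 replicate 3, to 2207, for *gld-1* in B12 replicate 1. Germline, intestine, body-wall muscle, neuron and hypodermis marker lists were all detected in every group. In whole animals, fewer cells of a type and less RNA per cell cannot be told apart, and this holds for every value below. Whether the groups also differed in developmental timing within L4 was not tested. Within a group many of the regulators were lowest or highest in the same library, though by differing amounts. B12 replicate 3 had the lowest CPM of its group for 8 of 8 regulators, mutant vehicle replicate 2 the lowest for 8 of 8, and wild-type replicate 2 the highest for 6 of 8. Wild-type replicate 1 was the highest for 2. The coefficient of variation was 1.97% for *fbf-1* and 23.3% for *gld-1* in wild type, and 1.55% for *fbf-2* and 24.0% for *gld-1* in mutant vehicle. A list of 30 germline granule and small RNA genes, used as a gauge of germline RNA, summed to 2253, 2194 and 1444 CPM in the B12 libraries (replicates 1 to 3), 1864, 1498 and 1744 CPM in mutant vehicle, and 1828, 2305 and 1778 CPM in wild type. B12 replicate 3 and mutant vehicle replicate 2 were the lowest of their groups there too, and wild-type replicate 2 the highest.

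Levels were first compared per length, as TPM, which scales counts by transcript length and library size. In wild type the order was *gld-1* (41.8 ± 10.3 TPM), *gld-2* (21.7 ± 3.08), *nos-3* (21.1 ± 3.40), *sygl-1* (12.01 ± 4.55), *lst-1* (10.8 ± 0.361), *glp-1* (7.31 ± 1.45), *fbf-2* (6.80 ± 1.02) and *fbf-1* (6.09 ± 0.129; SD, n = 3 each). The ranges of neighbours in this order overlapped except between *gld-1* and *gld-2*, *nos-3* and *sygl-1*, and *lst-1* and *glp-1*. The meiotic entry genes thus held the upper places, the Notch targets came next, and the receptor and the PUF genes were lowest. In mutant vehicle *gld-1* averaged 19.7 ± 5.30 TPM, and its range overlapped that of *gld-2* (18.8 ± 2.04 TPM). There *lst-1* (14.1 ± 0.945 TPM) stood above *sygl-1* (7.12 ± 1.47 TPM) with ranges apart, while the ranges of these Notch targets overlapped in the B12 and wild-type groups. With B12, *gld-1* averaged 40.7 ± 14.3 TPM and *gld-2* 21.8 ± 4.10 TPM, with overlapping ranges.

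**Figure D1:**
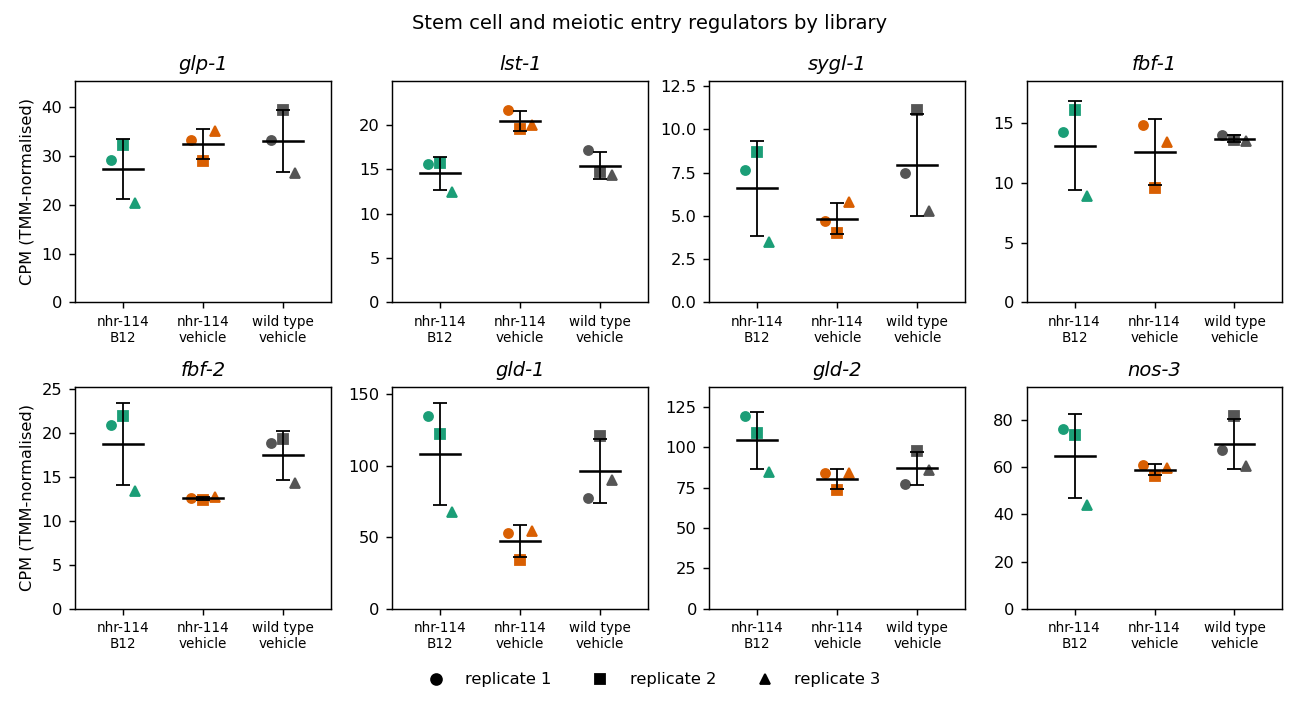
TMM-normalised CPM (vertical axes, each starting at 0) of the 8 regulators in each library, with nhr-114 B12, nhr-114 vehicle and wild type vehicle from left to right; symbols mark replicates, bars the mean and whiskers the SD (n = 3). The mutant vehicle libraries lie below all others for *gld-1* (34.02 to 54.4 CPM) and above all others for *lst-1* (19.5 to 21.7 CPM).

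The receptor gene *glp-1* gave no call in any comparison. It had 29.2, 32.2 and 20.3 CPM in mutant B12 libraries, 33.2, 29.001 and 35.1 CPM in mutant vehicle, and 33.2, 39.4 and 26.6 CPM in wild type. The 3 groups overlapped. Its log2 fold change was -0.03 ± 0.18 (SE) for mutant vehicle over wild type (edgeR quasi-likelihood test with Benjamini-Hochberg adjustment, adjusted p = 0.925) and -0.25 ± 0.18 for B12 over vehicle within the mutant (adjusted p = 0.295).

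The Notch target *lst-1* was higher in mutant vehicle than in either other group. It had 15.5, 15.8 and 12.4 CPM in mutant B12 libraries, 21.7, 19.5 and 20.001 CPM in mutant vehicle, and 17.1, 14.8 and 14.4 CPM in wild type. All 3 mutant vehicle libraries lay above all 6 others. It rose 1.32-fold in mutant vehicle relative to wild type (log2 fold change 0.40 ± 0.13, edgeR adjusted p = 0.0342). It fell in mutant B12 relative to mutant vehicle (log2 fold change -0.48 ± 0.13, edgeR adjusted p = 0.0125), and these comparisons share the mutant vehicle libraries. The rise over wild type sat near the threshold. Its edgeR adjusted p was 0.0931 without wild-type replicate 2, 0.107 without wild-type replicate 3, and 0.145, 0.0622 and 0.102 without mutant vehicle replicate 1, 2 or 3. It also missed the threshold under 6 of 11 other settings, over which the adjusted p of edgeR, limma or DESeq2 ran from 0.0300 to 0.0807. The fall with B12 passed in all 11 of those settings and in 8 of 9 fits with a library left out, the exception being without mutant vehicle replicate 1 (edgeR adjusted p = 0.0551).

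*sygl-1*, the other Notch target, did not pass in any comparison. It had 7.62, 8.67 and 3.495 CPM in mutant B12, 4.71, 4.02 and 5.80 CPM in mutant vehicle, and 7.44, 11.1 and 5.26 CPM in wild type. Its groups overlapped, and it had 50 to 183 counts per library. Its coefficient of variation was 41.5% in the B12 group and 37.2% in wild type, the largest of the 8 regulators in each. Its log2 fold change was -0.71 ± 0.35 for mutant vehicle over wild type (edgeR adjusted p = 0.146) and 0.45 ± 0.36 for B12 over vehicle (edgeR adjusted p = 0.336). These estimates have the opposite sign to those of *lst-1*; the difference between the targets was not tested.

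The PUF genes *fbf-1* and *fbf-2* are close paralogs whose shared reads kallisto divides by a model, so their separate values are uncertain. *fbf-2* had 20.9, 21.9 and 13.4 CPM in mutant B12, 12.6, 12.3 and 12.7 CPM in mutant vehicle, and 18.8, 19.2 and 14.3 CPM in wild type. Every mutant vehicle library lay below the other 6. *fbf-2* rose with B12 (log2 fold change 0.58 ± 0.19, edgeR adjusted p = 0.0291), while mutant vehicle over wild type did not pass (-0.48 ± 0.19, edgeR adjusted p = 0.0738). *fbf-1* had 14.3, 16.1 and 8.95 CPM in mutant B12, 14.8, 9.54 and 13.5 CPM in mutant vehicle, and 14.001, 13.6 and 13.5 CPM in wild type. Its groups overlapped and its log2 fold changes were -0.12 ± 0.22 for mutant vehicle over wild type and 0.06 ± 0.22 for B12 over vehicle.

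The *fbf-2* call was not matched by a call for the pair as a whole. With both genes summed to 1 feature, the log2 fold change for B12 over vehicle was 0.34 ± 0.18 and did not pass (edgeR adjusted p = 0.154). *fbf-1* alone stood at 0.06 ± 0.22, so adding it to *fbf-2* lowers the value. The sum therefore does not test how shared reads were divided. *fbf-2* held 59.4%, 57.6% and 59.9% of the pair's counts in the mutant B12 libraries, 46.02%, 56.3% and 48.5% in mutant vehicle, and 57.4%, 58.6% and 51.4% in wild type. Within the mutant the share was 59.0% ± 1.19 with B12 and 50.3% ± 5.38 with vehicle (SD, n = 3 each). A two-sided exact permutation test gave p = 0.1, which is the lowest value possible with groups of 3, and 0.2 after adjustment over 3 comparisons. The rise of *fbf-2* itself with B12 missed the threshold with scaling by germline genes (edgeR adjusted p = 0.257), with limma on TPM (0.175), without B12 replicate 1 or 2 (edgeR 0.0976 and 0.116) and without mutant vehicle replicate 1, 2 or 3 (0.0708, 0.0790 and 0.0832). Mutant vehicle over wild type passed without wild-type replicate 3 (edgeR adjusted p = 0.0419) or B12 replicate 3 (0.0193), with upper quartile scaling (0.0425) and in a fit of the 6 libraries compared (0.0261).

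*gld-1*, the STAR-family repressor that promotes meiotic entry, had the largest change of the 8 in both comparisons with mutant vehicle. It had 134.6, 121.8 and 67.9 CPM in mutant B12 libraries, 52.7, 34.02 and 54.4 CPM in mutant vehicle, and 77.6, 120.9 and 89.9 CPM in wild type. All 3 mutant vehicle libraries lay below the other 6, and the B12 and wild-type ranges overlapped. *gld-1* fell in mutant vehicle, to 47.0 ± 11.3 CPM against 96.1 ± 22.4 CPM in wild type (SD, n = 3 each; log2 fold change -1.03 ± 0.29, edgeR adjusted p = 0.0206). It rose with B12 in the mutant, to 108 ± 35.4 CPM, against 47.0 ± 11.3 CPM with vehicle (SD, n = 3 each; log2 fold change 1.20 ± 0.29, edgeR adjusted p = 0.00837), a 2.30-fold difference. The fall passed under all 11 other settings and missed the threshold only without wild-type replicate 2 (-0.83, edgeR adjusted p = 0.0549). The rise passed in all 11 settings and in all 9 fits with a library left out. Between mutant B12 and wild type the log2 fold change was 0.17 ± 0.28 (edgeR adjusted p = 0.743).

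*gld-2*, the poly(A) polymerase gene, had 119.4, 108.7 and 84.7 CPM in mutant B12, 83.98, 73.4 and 83.9 CPM in mutant vehicle, and 77.3, 97.8 and 86.1 CPM in wild type. The mutant groups did not overlap, but B12 replicate 3, at 84.7 CPM, lay barely above vehicle replicate 1, at 83.98 CPM. *gld-2* rose with B12 (log2 fold change 0.37 ± 0.13, edgeR adjusted p = 0.0393). That call was lost with a term for replicate number (edgeR adjusted p = 0.0631), with limma on deposited CPM (0.0649 and 0.0666) or TPM (0.347), with scaling by germline genes (edgeR 0.511), without B12 replicate 1 or 2 (edgeR 0.149 and 0.110), and without mutant vehicle replicate 1, 2 or 3 (0.0697, 0.136 and 0.0853). For mutant vehicle over wild type the value was -0.11 ± 0.13 (edgeR adjusted p = 0.544).

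*nos-3*, which acts beside *gld-1*, had 76.3, 73.6 and 44.2 CPM in mutant B12, 61.0, 56.3 and 59.7 CPM in mutant vehicle, and 67.2, 81.7 and 60.6 CPM in wild type. All 3 groups overlapped, though the highest mutant vehicle library, at 61.0 CPM, only just passed the lowest wild-type library, at 60.6 CPM. Its log2 fold changes were -0.24 ± 0.19 for mutant vehicle over wild type (edgeR adjusted p = 0.347) and 0.13 ± 0.19 for B12 over vehicle (edgeR adjusted p = 0.598). Without B12 replicate 3, *nos-3* rose with B12 relative to vehicle (0.35, edgeR adjusted p = 0.0402).

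**Figure D2:**
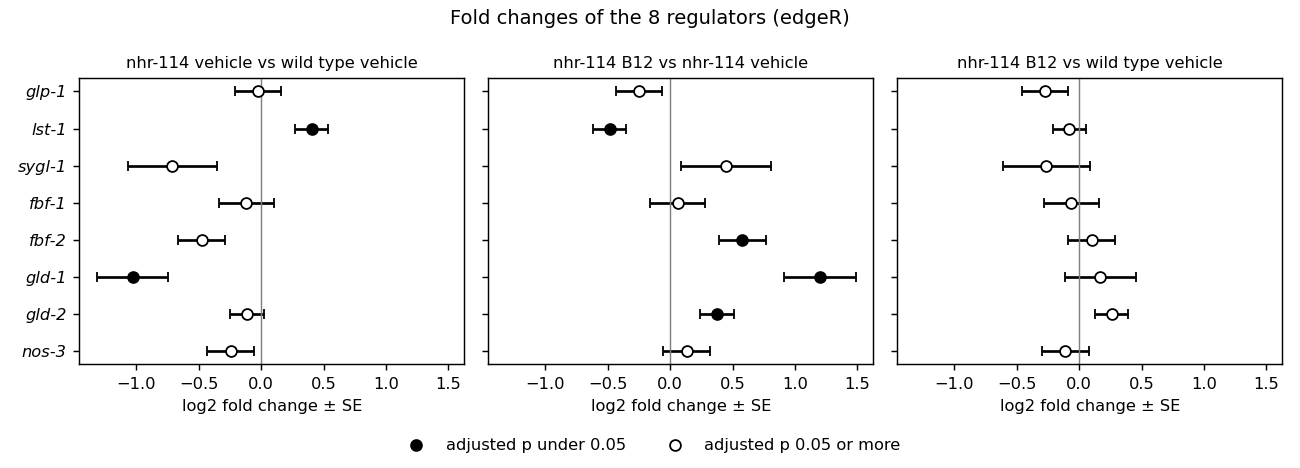
Log2 fold changes (horizontal axis) with SE for the 8 regulators in the 3 comparisons, from edgeR over 9 libraries; filled points have an adjusted p under 0.05. *gld-1* lies at -1.03 in mutant vehicle over wild type and at 1.20 in B12 over vehicle, with *lst-1* on the other side of 0 in both.

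Counted together, 1 of the 8 regulators rose and 1 fell in mutant vehicle relative to wild type, where 36.7% of all tested genes were called. Non-overlapping groups were seen for 3 of 8, against 50.8% of all genes. The median log2 fold change was -0.18 over the 8 and 0.01 over all tested genes. With B12 in the mutant, 3 rose and 1 fell, where 46.4% of all genes were called. Non-overlapping groups were seen for 4 of 8, against 59.1% of all genes (median 0.25 over the 8 and -0.04 over all). The share of regulators called was near or under the share of all genes in both comparisons. Between mutant B12 and wild type edgeR called 0 of 8, where 13.5% of all genes were called (7.29% higher and 6.16% lower). None of the 8 had groups that did not overlap in CPM there, against 31.3% of all genes, and the median was -0.07. In that comparison 0 of the 8 had an unadjusted p under 0.05 and DESeq2 also called 0. The largest value there was *glp-1* at -0.28 ± 0.18.

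The balance of *gld-1* to *lst-1* was lower in every library of mutant vehicle than in any other library. In TPM those libraries were already the lowest for *gld-1* and the highest for *lst-1*. The separation of this ratio therefore follows from the separate values and is no further result. The ratio of *gld-1* to *lst-1* in TPM was 5.20, 4.64 and 3.27 in mutant B12, 1.504, 1.03 and 1.62 in mutant vehicle, and 2.93, 4.99 and 3.75 in wild type. This ratio and the next were chosen after the values were seen and are given without a test. The tissue from which each RNA came was not measured. Relative to *gld-2*, the ratio for *gld-1* was 2.04, 2.02 and 1.42 in mutant B12, 1.13, 0.827 and 1.154 in mutant vehicle, and 1.77, 2.15 and 1.80 in wild type. Mutant vehicle libraries were the lowest in both ratios. Relative to *nos-3*, *gld-1* was also lowest there, at 0.852 to 1.29, against 2.22 to 2.54 in mutant B12 and 1.66 to 2.14 in wild type. The ratio of *sygl-1* to *lst-1* overlapped between the mutant groups. It was 0.596 to 1.17 in mutant B12, 0.436 to 0.613 in mutant vehicle and 0.759 to 1.59 in wild type. These further ratios were not tested either.

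The transcript estimates divided *lst-1* between a longer form, T22A3.3a (1708 bases), and shorter forms led by T22A3.3b.1 (1343 bases). The longer form held 13.9%, 14.4% and 13.5% of *lst-1* TPM in mutant B12 libraries, 19.8%, 10.3% and 12.9% in mutant vehicle, and 42.3%, 28.0% and 20.9% in wild type. Each wild-type library lay above each mutant library, by a small margin between wild-type replicate 3 and mutant vehicle replicate 1. In mutant vehicle the short T22A3.3b.1 stood at 12.1 ± 0.246 TPM, against 7.24 ± 0.977 TPM in wild type, while T22A3.3a stood at 2.05 ± 0.839 TPM in mutant vehicle and 3.31 ± 1.30 TPM in wild type (SD, n = 3 each). Kallisto assigns shared reads to forms by its model, and these shares, picked after the values were seen, were not tested. For *gld-2*, the form ZC308.1c held 26.8% to 39.3% of the gene's TPM in mutant B12, 13.7% to 16.9% in mutant vehicle and 16.8% to 22.3% in wild type, so the B12 libraries lay above all others. It stood at 6.93 ± 0.905 TPM in mutant B12 and 2.95 ± 0.313 TPM in mutant vehicle. ZC308.1a stood at 3.915 ± 2.33 and 3.92 ± 0.888 TPM, and ZC308.1b at 10.9 ± 1.48 and 11.9 ± 1.04 TPM (SD, n = 3 each). These *gld-2* forms were also picked after the values were seen and were not tested.

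**Figure D3:**
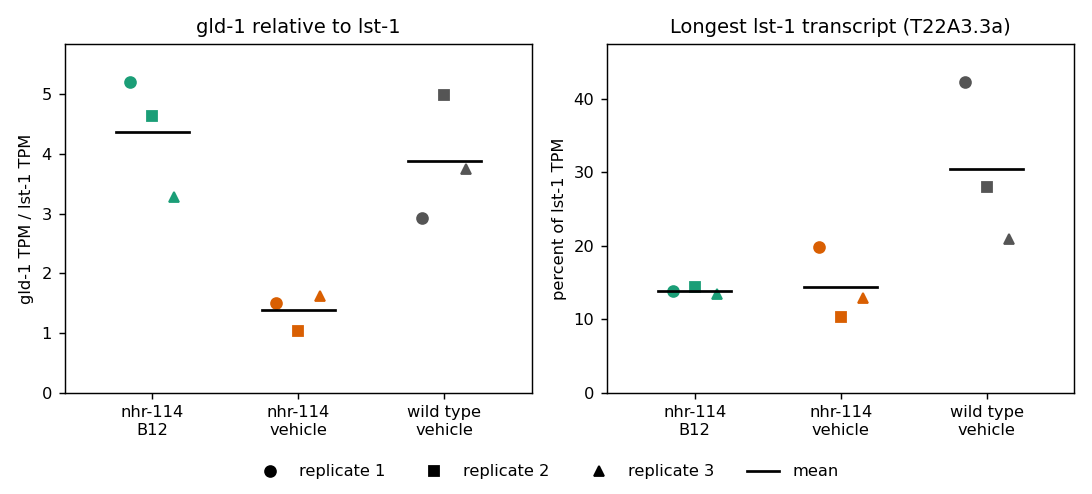
Left, ratio of *gld-1* to *lst-1* TPM in each library; right, percent of *lst-1* TPM held by transcript T22A3.3a; groups run nhr-114 B12, nhr-114 vehicle, wild type vehicle, symbols mark replicates and bars the mean. The ratio is 1.03 to 1.62 in mutant vehicle and at least 2.93 in every other library, while the longer form is at most 19.8% in each mutant library and at least 20.9% in wild type. The separation of the ratio follows from the separate *gld-1* and *lst-1* values.

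Set against the germline granule list, *gld-1* and *lst-1* in mutant vehicle lay outside the ranges of both other groups. This scale treats a regulator's RNA as germline RNA, and whole animals do not show which tissue it came from. Per 1000 CPM of the germline granule list, *gld-1* had 59.7, 55.5 and 47.0 CPM in mutant B12, 28.3, 22.7 and 31.2 in mutant vehicle, and 42.4, 52.5 and 50.5 in wild type, with mutant vehicle below all others. On the same scale *lst-1* had 6.90, 7.18 and 8.62 in mutant B12, 11.6, 13.03 and 11.5 in mutant vehicle, and 9.37, 6.40 and 8.08 in wild type, with mutant vehicle above all others. The receptor gene *glp-1* had 12.96 to 14.7 in mutant B12, 17.8 to 20.1 in mutant vehicle and 14.9 to 18.2 in wild type, with B12 below both other groups. *gld-2* had 49.6 to 58.7 in mutant B12, 45.1 to 49.03 in mutant vehicle and 42.3 to 48.4 in wild type, with B12 above both other groups. *fbf-2* had 9.25 to 9.98 in mutant B12 and 6.77 to 8.21 in mutant vehicle, which were apart, and *nos-3* had 30.6 to 33.9 in mutant B12 and 34.1 to 36.8 in wild type, which were apart. On this scale, then, *glp-1*, *gld-2* and *nos-3* did not overlap between mutant B12 and wild type, whereas in CPM none of the 8 was apart. Their nearest libraries, with B12 first, were close, at 14.7 and 14.9 for *glp-1*, 49.6 and 48.4 for *gld-2*, and 33.9 and 34.1 for *nos-3*. The share of all genes with groups apart was not computed on this scale, so these separations have no background beside them. With this list as the scaling factor of the edgeR fit, the median of all genes shifted to 0.22 in mutant vehicle over wild type and to -0.20 in B12 over vehicle, and *gld-1* was called in both comparisons with mutant vehicle (log2 fold change -0.82 ± 0.21 against wild type, edgeR adjusted p = 0.0110; 0.98 ± 0.21 for B12, edgeR adjusted p = 0.00257). *lst-1* was called for B12 (-0.67 ± 0.24, edgeR adjusted p = 0.0418) and not against wild type (0.60 ± 0.24, edgeR adjusted p = 0.0807), and neither *fbf-2* nor *gld-2* was called. Between mutant B12 and wild type that fit called 0 of the 8, where 3.82% of all genes were called.

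Spermatogenesis genes moved with *gld-1* across groups. The summed level of 37 such genes was 765 to 864 CPM in mutant B12, 193 to 322 CPM in mutant vehicle and 490 to 749 CPM in wild type, and 0 of the 37 had no counts in a group. Of these genes 26 fell and 0 rose in mutant vehicle relative to wild type (median log2 fold change -1.20), where 18.3% of all genes fell, and 31 rose and 0 fell with B12 (median 1.69), where 22.6% of all genes rose. Their part in the *gld-1* values was not tested. Replicate by replicate, the list summed to 765, 864 and 793 CPM in mutant B12, 322, 193 and 261 CPM in mutant vehicle, and 490, 583 and 749 CPM in wild type. *gld-1* and the list were lowest in the same library in mutant vehicle (replicate 2) and in wild type (replicate 1), and in different libraries in mutant B12 (replicates 3 and 1). Their highest libraries differed in every group. With *gld-1* first, these were replicates 1 and 2 in mutant B12, 3 and 1 in mutant vehicle, and 2 and 3 in wild type. Of 20 oocyte genes 7 rose and 2 fell with B12, and 1 rose and 2 fell in mutant vehicle relative to wild type. Over all tested genes 22.6% rose and 23.9% fell with B12, and 18.4% rose and 18.3% fell in mutant vehicle, and these shares apply to each marker count that follows. The oocyte list summed to 193 to 309 CPM in mutant B12, 158 to 227 CPM in mutant vehicle and 172 to 218 CPM in wild type. Of 7 tested somatic gonad and distal tip cell genes 0 rose and 1 fell in mutant vehicle, and 2 rose and 0 fell with B12. The 10 genes on that list summed to 171 to 208 CPM in mutant B12, 161 to 183 CPM in mutant vehicle and 168 to 193 CPM in wild type, with *ehn-3* and *hnd-1*, genes of early gonad precursors, at 0 counts in each group.

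Markers outside the germline also differed between groups, and their part in the regulators' values was not tested. Of 7 intestine genes 6 rose and 0 fell in mutant vehicle relative to wild type, and 0 rose and 5 fell with B12. They summed to 5337 to 6278 CPM in mutant B12, 7066 to 8497 CPM in mutant vehicle and 6224 to 7659 CPM in wild type. Of 8 hypodermis genes 1 rose and 5 fell in mutant vehicle, and 3 rose and 2 fell with B12. They summed to 4088 to 5310 CPM in mutant B12, 1505 to 2256 CPM in mutant vehicle and 3283 to 3839 CPM in wild type. Most of the difference in the hypodermis sum between the mutant groups was the collagen gene *dpy-13*, at 3641 ± 437 CPM with B12 and 981 ± 276 CPM with vehicle (SD, n = 3 each), and the list's median log2 fold change for B12 over vehicle was 0.04. None of 8 body-wall muscle genes was called by edgeR in either comparison, and of 7 neuron genes 1 rose and 1 fell in mutant vehicle and 1 rose and 3 fell with B12. No marker on these 4 lists was at 0 counts in a group.

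**Figure D4:**
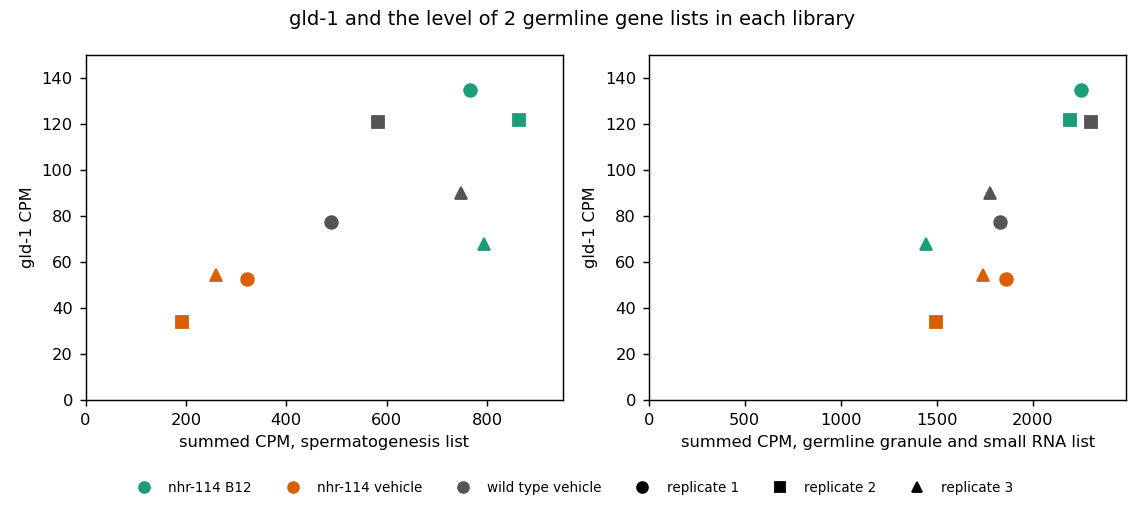
*gld-1* CPM (vertical axis) against the summed CPM of the spermatogenesis list (left) and of the germline granule and small RNA list (right), 1 point per library, colours marking groups and symbols replicates. The mutant vehicle libraries lie lowest on the left panel in both measures; on the right, B12 replicate 3 has the lowest list sum (1444 CPM) at 67.9 CPM of *gld-1*.

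For the gene lists of the wider network, the shares of all tested genes to set beside the counts are 18.4% higher and 18.3% lower in mutant vehicle relative to wild type, and 22.6% higher and 23.9% lower with B12. In the Notch pathway 1 of 14 tested genes rose and 2 fell in mutant vehicle relative to wild type. The presenilin gene *sel-12* rose (0.38 ± 0.13), and *sel-8*, a nuclear cofactor of the Notch effector LAG-1, and *adm-4*, an ADAM protease of Notch processing, fell (-0.50 ± 0.10 and -0.68 ± 0.12). The ligand gene *lag-2* and the effector gene *lag-1*, named for their roles after their values were seen, did not pass (-0.31 ± 0.53 and 0.10 ± 0.12). With B12, *epn-1*, an epsin needed by Notch-signalling cells, rose (0.83 ± 0.13), and the ADAM protease gene *sup-17* and the gamma-secretase gene *aph-1* fell (-0.33 ± 0.09 and -0.42 ± 0.13); those were the 3 calls among the 14.

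Of 19 PUF and GLD partner genes, 1 rose and 0 fell in mutant vehicle relative to wild type, namely *puf-9*, a PUF gene with known roles outside the germline (0.43 ± 0.08). With B12, 3 rose and 2 fell. Among them were the PUF genes *puf-11* and *puf-3*, at 7.66 ± 1.11 and 7.77 ± 1.77 CPM with B12, against 2.99 ± 1.12 and 3.46 ± 1.09 CPM with vehicle (log2 fold change 1.36 ± 0.30 and 1.17 ± 0.29). *puf-9* fell (-0.38 ± 0.08). *puf-3* and *puf-11* are close paralogs, so their separate values are uncertain. Of 17 deadenylation and polyadenylation genes 2 rose and 2 fell in mutant vehicle, and 2 rose and 4 fell with B12. The sperm fate gene *fog-1*, a CPEB-family RNA-binding protein, had 2.47 ± 0.0791 CPM in mutant B12, 12.1 ± 1.53 CPM in mutant vehicle and 2.52 ± 1.20 CPM in wild type (log2 fold changes 2.27 ± 0.28 for mutant vehicle over wild type and -2.29 ± 0.29 for B12 over vehicle).

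Of 47 meiotic prophase genes 7 fell and 0 rose in mutant vehicle relative to wild type, where 18.3% of all genes fell. Among them were *syp-2* of the synaptonemal complex (-0.64 ± 0.14), *zyg-12*, which links chromosomes to the cytoskeleton (-0.74 ± 0.12), and *lab-1*, which protects cohesion (-1.44 ± 0.33). With B12, 10 rose and 1 fell, where 22.6% of all genes rose, with the same 3 genes among the rises (0.77 ± 0.14, 0.65 ± 0.12 and 1.94 ± 0.33). Of 32 genes of the mitotic cell cycle and replication 4 rose and 6 fell in mutant vehicle, and 6 rose and 5 fell with B12, each count near or under the share of all genes. The Aurora A kinase gene *air-1* had 71.7 ± 8.56 CPM with B12, 37.8 ± 4.34 CPM with vehicle in the mutant and 61.9 ± 5.26 CPM in wild type. The cyclin D gene *cyd-1* had 2.86 ± 0.686 CPM with B12, against 15.6 ± 0.314 CPM with vehicle (log2 fold change -2.45 ± 0.26). Of 28 tested germline granule and small RNA genes 0 rose and 2 fell in mutant vehicle, and 4 rose and 3 fell with B12.

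Of 19 nutrient and TGF-beta signalling genes that act on the germline 8 rose and 1 fell in mutant vehicle relative to wild type (median log2 fold change 0.21, where 18.4% of all genes rose), and 0 rose and 14 fell with B12 (median -0.48, where 23.9% of all genes fell). The TGF-beta receptor gene *daf-1* had 19.3 ± 1.58 CPM in mutant B12, 37.6 ± 3.49 CPM in mutant vehicle and 22.6 ± 0.868 CPM in wild type. The insulin receptor gene *daf-2* had 64.2 ± 5.65 CPM with B12, against 128 ± 4.25 CPM with vehicle. The SMAD gene *daf-3* rose in mutant vehicle (0.74 ± 0.12) and fell with B12 (-0.91 ± 0.12). Many of these genes are also expressed outside the germline.

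**Figure D5:**
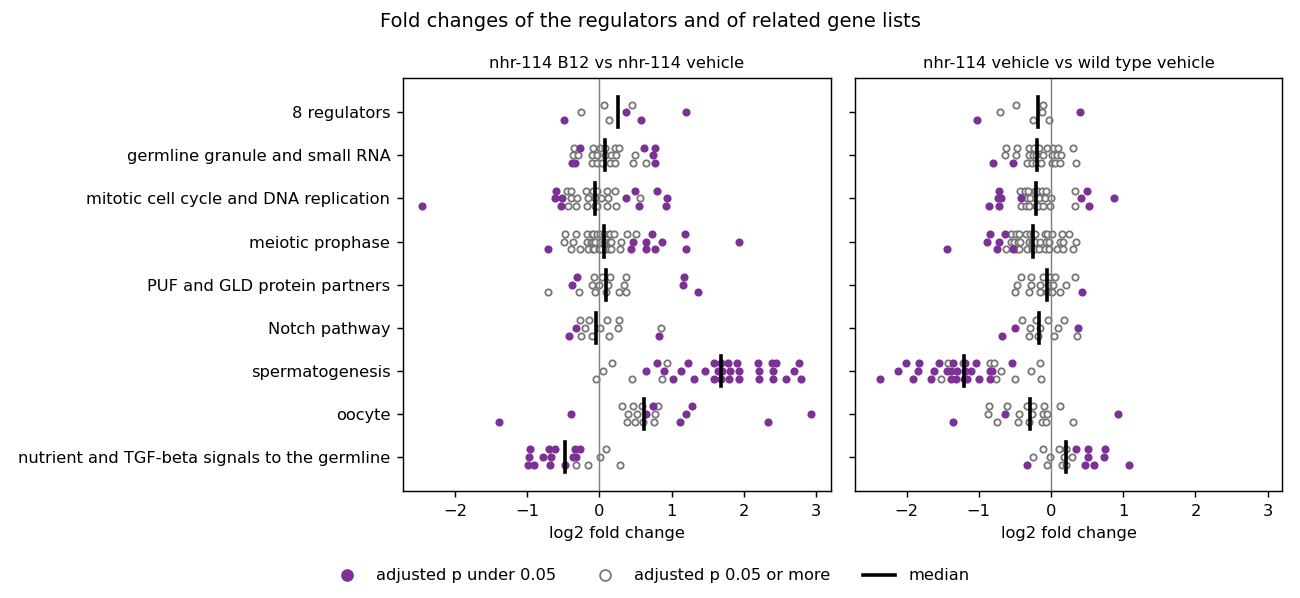
Log2 fold changes (horizontal axis) of single genes in the 8 regulators and in 8 related lists, for B12 over vehicle in the mutant (left) and mutant vehicle over wild type (right); filled points have an adjusted p under 0.05 and black bars are medians. The spermatogenesis list has medians of 1.69 and -1.20, and the 8 regulators 0.25 and -0.18.

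The genes whose pattern over the 9 libraries was most like that of a regulator were found by Pearson correlation of log2 CPM among 6437 genes, given as a description, since libraries of a group share their condition and germline content. For *gld-1* they were *gldi-9* (r = 0.990), *abt-5* (0.988) and the germline RNA helicase gene *cgh-1* (0.988), a member of the germline granule list. For *lst-1* they were *cls-2* (0.991), *npr-28* (0.969) and *mlk-1* (0.969). *fbf-1* was most like *gld-3* (0.965), which encodes a partner of GLD-2, and *glp-1* most like *ulp-2* (0.980). *sygl-1* was most like the sperm gene *fer-1* (0.967), *fbf-2* like *snu-13* (0.983), *gld-2* like *polh-1* (0.963) and *nos-3* like *rpc-1* (0.971).

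The genes lie on WBcel235 chromosomes as follows, from an annotation newer than the WS245 release used for quantification. *glp-1* (WBGene00001609) lies on chromosome III, 9092241 to 9099698. *fbf-1* (WBGene00001401; 6078263 to 6080843), *fbf-2* (WBGene00001402; 6088863 to 6091480) and *nos-3* (WBGene00003785; 9746316 to 9750462) lie on chromosome II, the PUF pair next to each other on the minus strand. *gld-1* (WBGene00001595; 7695681 to 7698222), *gld-2* (WBGene00001596; 6369748 to 6386194), *lst-1* (WBGene00003083; 10588501 to 10590465) and *sygl-1* (WBGene00012104; 12483809 to 12486235) lie on chromosome I. Genes on the opposite strand overlap *glp-1*, *fbf-1*, *gld-2* and *nos-3*, by 559 bases at most for the noncoding RNA gene ZC308.5 within *gld-2*, and reads of such genes cannot be told apart where strand was not kept.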

How the data were processed

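RNA of whole animals was quantified per transcript, and the authors deposited estimated counts from kallisto 0.46.0 on the WormBase WS245 reference, after demultiplexing with bcl2fastq, per the labels and the submitters' processing notes. Transcript lengths were deposited beside them. The authors also deposited a CPM table of 20306 entries, of which 276 had no gene name and 10 carried a bare number. The labels name an NEBNext Ultra kit and do not mention strand. Estimated counts of 30939 transcripts were summed to 20336 genes by sequence name and rounded; 20054 had an annotated gene ID. Within 1%, 99.8% of 19005 genes compared had the deposited CPM in all libraries. TPM was computed from estimated counts and effective lengths.

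Tests used edgeR 4.0.16 (R 4.3.3; filterByExpr, TMM, robust quasi-likelihood) over 9 libraries, with 1 mean per group and Benjamini-Hochberg adjustment over 14747 genes, called at an adjusted p under 0.05. The SE is the size of the log2 fold change divided by the square root of F. Alternatives used limma 3.58.1 and DESeq2 1.42.0. The procedure was also run on simulated data, in which far fewer genes were changed than were called here. Those data therefore do not test the scaling where many genes differ. Python 3.11.15 (numpy 2.4.6, scipy 1.17.1, pandas 2.3.3, matplotlib 3.10.9) made summaries and figures. Members and gene lists were chosen with earlier results of these data known. Named genes were the 8 regulators, *nhr-114*, up to 3 called genes with the smallest adjusted p from each of 14 lists in the comparisons of mutant vehicle with wild type and of B12 with vehicle, of which a subset is described, and the 3 genes of at least 5 CPM most like each regulator, of which the first or all 3 are given. Of 280 list entries 276 were matched. Replicates of a group differed by more than sampling noise in all 9 pairs (chi-square per degree of freedom 6.94 to 42.5).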

Additional observations from a re-analysis of the deposited data

How the results depend on the processing

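Alternatives were RLE, upper quartile and germline-list scaling, no filter or 5 CPM in 3 libraries, fits of 6 libraries, DESeq2, a replicate block, limma on log2(deposited CPM + 1), log2(deposited CPM + 0.25) and log2(TPM + 1), and leaving out each library. In mutant vehicle over wild type 1 regulator was called with germline-list scaling, no filter or any limma fit, and 0 (without wild-type replicate 2) to 3 (without B12 replicate 3) with a library left out, against 2. The share of all genes called was 22.1% with germline-list scaling, 27.2% with no filter and 37.0% to 38.5% with limma. It was 31.2% without wild-type replicate 2 and 37.9% without B12 replicate 3. For B12 over vehicle 2 were called with germline-list scaling or limma on TPM and 1 (without mutant vehicle replicate 1) to 5 (without B12 replicate 3) with a library left out, against 4. In those fits, in the same order, 30.0%, 50.5%, 41.2% and 43.4% of all genes were called. For B12 over wild type 0 were called in every fit, where 3.82% (germline-list scaling) to 30.3% (limma on TPM) of all genes were called. Genes called with germline-list scaling numbered 3261, 4429 and 564 in these 3 comparisons in order, against 5408, 6849 and 1984, and 4454 with limma on TPM in the third, where the median of all genes was -0.23 (-0.17 in the second). Limma on TPM gave 2659 higher and 4760 lower genes in the second comparison, against 3326 and 3523, and 753 and 3701 in the third, against 1075 and 909. In the third, germline-list scaling gave 367 and 197, and limma on deposited CPM 981 and 1317 or 928 and 1296. The causes were not tested.

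Values that were not called changed sign. In mutant vehicle over wild type *glp-1* was 0.19 with germline-list scaling and 0.00037 with the replicate block, *fbf-1* 0.061 and *gld-2* 0.095 with germline-list scaling. For B12 over vehicle *fbf-1* was -0.15 and *nos-3* -0.093 with germline-list scaling, and -0.096 and -0.077 with limma on TPM. For B12 over wild type *fbf-2* was -0.17, *gld-1* -0.077 and *gld-2* -0.0036 with limma on TPM, and *fbf-1* 0.031 as 1 feature with *fbf-2*. With a library left out, ranges crossing 0 were -0.16 to 0.12 (*glp-1*) and -0.27 to 0.045 (*fbf-1*) in the first comparison, -0.11 to 0.27 (*fbf-1*) and -0.0020 to 0.35 (*nos-3*) in the second, and -0.14 to 0.022 (*lst-1*), -0.51 to 0.056 (*sygl-1*), -0.24 to 0.15 (*fbf-1*), -0.027 to 0.29 (*fbf-2*), -0.019 to 0.42 (*gld-1*) and -0.25 to 0.10 (*nos-3*) in the third. The difference in *fbf-2* share kept its direction in each comparison with TPM in place of counts and with each library left out, the only alternatives run for it.

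Replicate numbers are shared across groups. Deviations from group means correlated at -0.22 to 0.38 for same-numbered libraries and at -0.43 to 0.28 for different-numbered ones. The highest value was between wild-type replicate 2 and B12 replicate 2. Most same-numbered libraries did not deviate together, so libraries were not treated as pairs. With the replicate block 2, 3 and 0 regulators were called, where 34.9%, 44.8% and 11.8% of all genes were called. *sygl-1* had the fewest counts of the 8 regulators, 50 to 183 per library.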
